A study of Rattus norvegicus with 72 samples.

Results

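S1 tubules are the first part of the proximal tubule, the nephron segment that takes back most filtered sugar, amino acids, phosphate and protein. Compared here were S1 tubules dissected by hand from the left kidney 72 h and 24 h after removal of the right one (nephrectomy). Of the 72 libraries of the study, 7 entered the comparison: replicates 1 to 4 at 24 h and replicates 1, 3 and 4 at 72 h, each with all genes of the count table. Replicate 2 at 72 h was left out because 8.05% of its uniquely placed reads lay in genes. All rats were adult male Sprague-Dawley, an outbred strain, on normal chow, and no rat carried an engineered allele according to the labels. Sham rats, which had the right renal pedicle dissected and the kidney left in place, gave the same 2 times (3 libraries at 24 h, 4 at 72 h), and whole left kidneys after nephrectomy gave 4 libraries at each time. No label ties a library to a rat. The p-values therefore reflect only how far these libraries lie apart, and part of that may be technical.

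After loss of a kidney the remaining one enlarges, mostly by growth of proximal tubule cells. The cells first make more RNA and protein, and a smaller number of them pass through DNA replication and mitosis. The same cells carry the transporters and endocytic receptors of the brush border, make glucose and ammonia, oxidise fatty acids, clear drugs through conjugating enzymes, and regulate phosphate and vitamin D.

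Gene counts per library ran from 13336514 to 52917714 at 24 h and from 13121082 to 87368807 at 72 h. They count amplified fragments without molecular identifiers. Genes held 35.6 to 67.4% of uniquely placed reads at 24 h and 46.5 to 71.5% at 72 h, and the 37 mitochondrial genes held 46.8 to 63.5% and 52.0 to 70.0% of gene counts. Slc34a1, the phosphate transporter that marks the proximal tubule, stood at 858 to 1956 RPKM (reads scaled by gene length and library size, as deposited) at 24 h and at 1133 to 1491 at 72 h, and at 315 in the left-out library. The 10 proximal tubule markers together summed to 3748 to 5731 RPKM at 24 h and 3222 to 4863 at 72 h, none at 0. Sums of 9 markers of the later proximal tubule (S2 and S3) were 234 to 711 RPKM at 24 h and 287 to 552 at 72 h. Those of podocytes, endothelium, fibroblasts, and the loop and distal tubule stayed under 80 RPKM in all 7 libraries. Sums of collecting duct markers reached 140.7 and those of leukocytes 258. In the library with that leukocyte sum, replicate 3 at 72 h, the single gene Cd74 gave 219 of it. In single libraries up to 2 of 12 collecting duct markers and up to 4 of 17 leukocyte markers were at 0. In bulk samples, fewer cells of a type and less RNA per cell cannot be told apart.

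No gene passed the test between 72 h and 24 h after nephrectomy. Of 17759 genes tested with edgeR's quasi-likelihood F test, 0 had a Benjamini-Hochberg adjusted p under 0.05 (0%), and the smallest adjusted p was 0.479. At an unadjusted p under 0.05 there were 901 genes (5.07%), 383 of them higher at 72 h (2.16%) and 518 lower (2.92%). All 72 h libraries lay above all 24 h libraries in 373 genes (2.1%) and below them in 449 (2.53%), and 52.2% of genes had a log2 fold change above 0, with a median of 0.02. The biological coefficient of variation, the typical relative spread between libraries of a group, was 0.541. The genes below are therefore given as values that did not pass, and the words higher and lower describe these libraries.

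**Figure D1:**
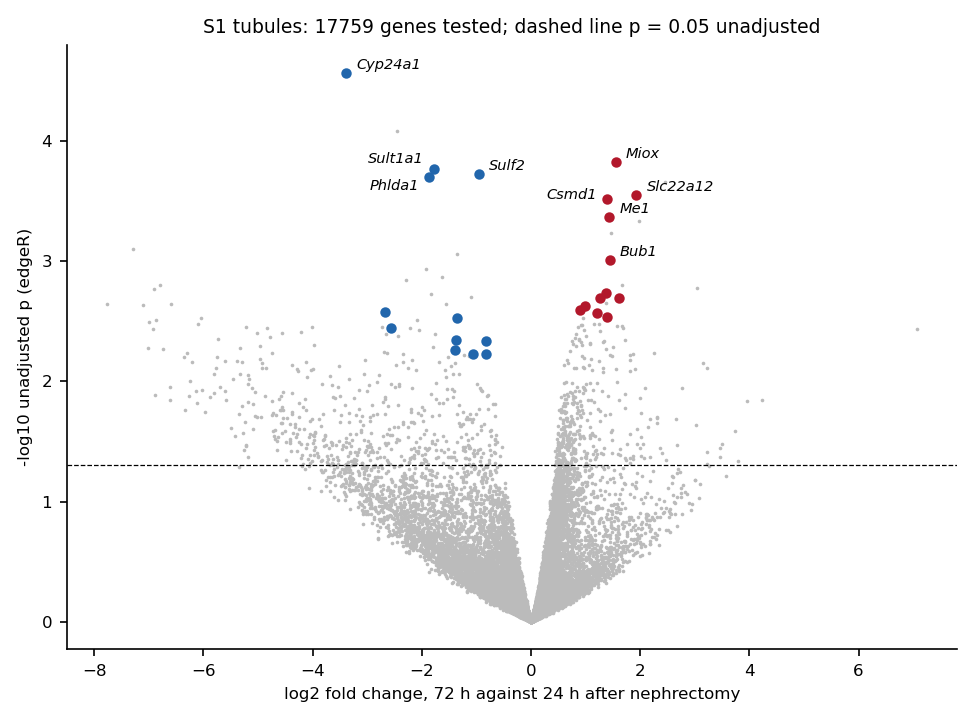
Each grey point is 1 of the 17759 genes tested in S1 tubules, with the log2 fold change at 72 h against 24 h after nephrectomy on the x axis and -log10 of the unadjusted edgeR p on the y axis; the dashed line is an unadjusted p of 0.05. Red and blue points are the 12 higher and 12 lower named genes with the smallest p, and Cyp24a1 at a log2 fold change of -3.39 has the smallest p of all.

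Other tools and other sets of libraries gave other counts. DESeq2 called 6 genes: Cyp24a1, Lpl, Sult1a1, Sulf2 and Phlda1 lower and Miox higher. Without the filter on low counts edgeR called Cyp24a1 alone (adjusted p 0.000433), and without replicate 4 at 24 h it called Sult1a1 alone (adjusted p 0.0222). Limma called 0 genes, with voom weights (526 at an unadjusted p under 0.05) and on log2(RPKM + 1) (1009). The 901 genes at an unadjusted p under 0.05 became 1516 without replicate 1 at 72 h (181 higher, 1335 lower), 1947 without replicate 4 at 72 h (710 higher, 1237 lower) and 547 without replicate 3 at 24 h. With the left-out 72 h library kept they were 1752, of which 1569 were higher, and the median of all genes was 0.16. DESeq2's size factors in edgeR gave 233 higher and 655 lower in place of 383 and 518, and moved the median of all genes from 0.02 to -0.08. On log2(RPKM + 1) the split was 119 higher and 890 lower, with a median of -0.12.

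Among phosphate and vitamin D genes, Cyp24a1 stood apart. It encodes the mitochondrial hydroxylase that breaks down active vitamin D. Its level in the 24 h libraries 1 to 4 was 64.3, 142, 129 and 51.9 CPM (counts relative to library size, scaled by TMM), and in the 72 h libraries 1, 3 and 4 it was 2.70, 5.94 and 19.8. Every 72 h library lay below every 24 h library, and the 48 h libraries, at 22.4 to 78.6 CPM, reached down to just above the highest at 72 h. The log2 fold change was -3.39 (SE 0.67, unadjusted p 2.7e-05, adjusted p 0.479), and it ran from -4.48 to -3.02 over the 20 other settings tried. After sham surgery the mean was 43.4 CPM at 24 h, 110.1 at 48 h and 16.6 at 72 h, with a log2 fold change of -1.41 (SE 0.59) between 24 h and 72 h. The difference of this change between the surgeries was -1.99 (SE 0.86, unadjusted p 0.028, adjusted p 0.9995), which did not pass.

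The enzyme that makes active vitamin D, Cyp27b1, was low in these libraries. Its 24 h values were 3.09, 14.1, 2.71 and 1.31 CPM, and its 72 h values were 6.32, 0.907 and 3.00. The groups overlapped and the log2 fold change was -0.63 (SE 0.61). Vdr, the vitamin D receptor, had 93.8 to 204 CPM at 24 h and 109 to 149 at 72 h (log2 fold change -0.28, SE 0.29). The 2 phosphate transporters of the brush border also overlapped between times, Slc34a1 with a log2 fold change of 0.20 (SE 0.24) and Slc34a3 with -0.33 (SE 0.23). Of the 13 phosphate and vitamin D genes tested, 8 had a log2 fold change above 0. Only Cyp24a1 among them had an unadjusted p under 0.05, beside 5.07% of all genes.

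**Figure D2:**
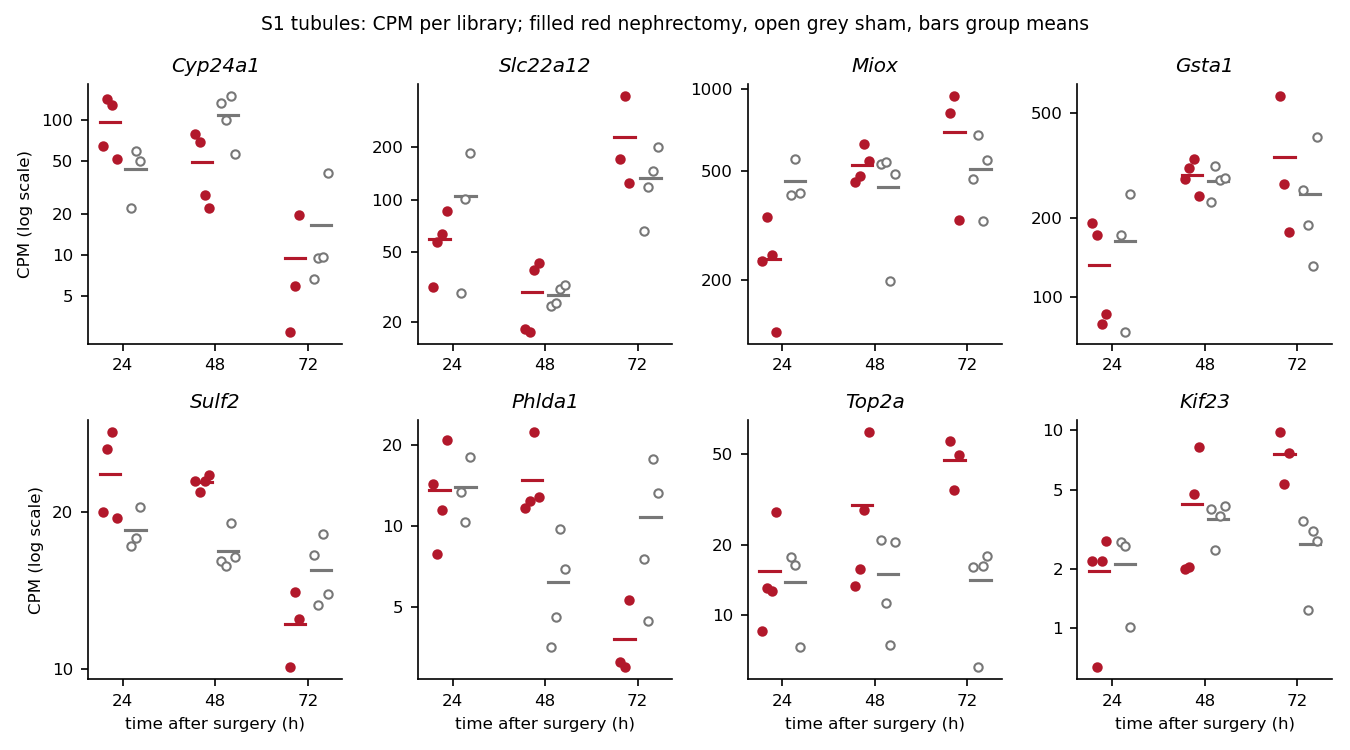
Points are CPM of single S1 libraries on a log axis against time after surgery in h for 8 genes, filled red after nephrectomy and open grey after sham surgery, with bars at group means. At 72 h Cyp24a1, Sulf2 and Phlda1 lie below, and Slc22a12, Top2a and Kif23 above, every nephrectomy library at 24 h, while Miox and Gsta1 overlap through 1 library at 72 h each.

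Of 51 genes of proximal tubule transporters and their scaffold tested, 38 had a log2 fold change above 0. The median was 0.20 beside 0.02 over all genes. At an unadjusted p under 0.05, 10 were higher and 1 lower. All 72 h libraries lay above all 24 h libraries in 6. Over all genes the shares were 2.16% higher, 2.92% lower and 2.1% above. None of these genes passed the test (0 of 51). After sham surgery 37 of the 51 were above 0 between the same times, with a median of 0.17 beside 0.05 over all genes. Slc22a12, the urate transporter of the brush border, was at 31.9, 57.7, 64.1 and 86.0 CPM at 24 h and at 170, 388 and 124 CPM at 72 h. The 2 times did not overlap, and replicate 3 at 72 h was the highest. The log2 fold change was 1.92 (SE 0.46, unadjusted p 0.000281, adjusted p 0.591). At 48 h its 4 libraries lay at 17.7 to 43.5 CPM, so the mean at that time (29.7) was under the means of both other times.

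Slc22a6, the basolateral organic anion transporter that brings drugs and urate into the cell, had 370, 697, 441 and 584 CPM at 24 h and 807, 1201 and 874 CPM at 72 h. All 72 h libraries were again above all 24 h libraries, with a log2 fold change of 0.88 (SE 0.28, adjusted p 0.892). Slc5a1, the sodium-glucose transporter typical of the later proximal tubule, had 3.04, 20.3, 10.4 and 4.90 CPM at 24 h and 35.8, 51.7 and 18.5 CPM at 72 h. Replicate 4 at 72 h fell inside the 24 h range, and the log2 fold change was 1.87 (SE 0.63, adjusted p 0.892). Abcc2, an export pump for conjugates, was at 25.9 to 46.1 CPM at 24 h and 53.6 to 70.3 CPM at 72 h (log2 fold change 0.61, SE 0.22), and its value was 0.34 without replicate 1 at 72 h. The single lower member was Slc15a1, the peptide transporter, at -0.79 (SE 0.31, unadjusted p 0.017). Slc5a2, the main glucose transporter of S1, was at 59.0 to 130 CPM at 24 h and 60.3 to 116 CPM at 72 h, a log2 fold change of -0.01 (SE 0.42).

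Endocytosis genes, which serve the uptake of filtered protein, had a median log2 fold change of 0.21, with 17 of 22 above 0 and 0 of 22 past the threshold. Lrp2, the receptor megalin, had 1390 to 3780 CPM at 24 h and 2493 to 5114 CPM at 72 h (log2 fold change 0.41, SE 0.35), and the groups overlapped. Ap2m1, a subunit of the clathrin adaptor, was the single member of the 22 at an unadjusted p under 0.05, beside 5.07% of all genes. It had 81.4 to 107 CPM at 24 h and 113 to 150 CPM at 72 h (0.52, SE 0.20). Both medians depended on replicate 1 at 72 h and on the scale. Without that library the median was -0.09 for transporters and -0.20 for endocytosis genes, beside -0.16 over all genes. On log2(RPKM + 1) both were at -0.05, beside -0.12.

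Miox, the oxygenase that starts the breakdown of myo-inositol in proximal tubule cells, had the smallest p among higher genes, with 234, 340, 247 and 129 CPM at 24 h and 815, 941 and 330 CPM at 72 h. Replicates 1 and 3 at 72 h were above every 24 h library, and replicate 4 lay just under the highest of them. The log2 fold change was 1.55 (SE 0.35, adjusted p 0.555). Me1, the malic enzyme that supplies NADPH, likewise overlapped through replicate 4 at 72 h, with 14.3 to 31.4 CPM at 24 h and 61.0, 75.3 and 30.3 CPM at 72 h (1.43, SE 0.36, adjusted p 0.742). Gsta1, a glutathione S-transferase whose reads may be shared with close copies, had 191, 171, 78.9 and 86.4 CPM at 24 h and 579, 268 and 177 CPM at 72 h (1.37, SE 0.40, adjusted p 0.892), and 0.61 without replicate 1 at 72 h. Ugt1a8, a glucuronosyltransferase that shares exons with its neighbours, stood at 1.21 (SE 0.37), Aadac, a deacetylase, at 1.39 (SE 0.42), and Pxmp2, a peroxisomal membrane channel, at 0.98 (SE 0.29).

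The list of NRF2 targets and glutathione genes, which defend against oxidants, held 29 tested members. Of these 22 had a log2 fold change above 0, and none passed the test. At an unadjusted p under 0.05, 8 were higher and none was lower, beside 2.16% and 2.92% over all genes. The median was 0.32, beside 0.02 over all genes. Without replicate 1 at 72 h it was 0.04, beside -0.16. Gstp1 lay between 11.9 and 30.4 CPM at 24 h and between 32.1 and 57.1 at 72 h (1.27, SE 0.40). Hmox1, the enzyme that degrades haem, lay between 2.73 and 4.63 CPM at 24 h and at 5.40, 9.72 and 13.6 at 72 h (1.504, SE 0.49). Neither gene overlapped between times. Txn1, thioredoxin, overlapped, with 52.5 to 107 CPM and 86.1 to 197 CPM (0.80, SE 0.30), and stood at 0.32 without replicate 1 at 72 h. Of 19 drug-metabolising enzymes tested, 4 were higher and 1 lower at an unadjusted p under 0.05, beside 2.16% and 2.92% over all genes. With 11 of 19 above 0 their median was 0.23. After sham surgery 15 were above 0 and the median was 0.35. Cyp2d2, a P450 with close copies, was at 12.4 to 32.6 CPM at 24 h and at 83.0, 100 and 12.1 at 72 h (1.82, SE 0.61), so that 1 library at 72 h lay under all at 24 h. Aldh1a1, an aldehyde dehydrogenase, stood at 1.14 (SE 0.42), and at 0.67 without replicate 1 at 72 h.

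Sult1a1, a sulfotransferase for phenols, was the lower member of that list. It had 14.8, 23.5, 28.0 and 4.42 CPM at 24 h and 5.95, 5.03 and 4.42 CPM at 72 h. Replicate 4 at 24 h lay within the 72 h range and the other 3 lay above it. The log2 fold change was -1.78 (SE 0.41, adjusted p 0.555), and -2.10 without that library. Pck1, the rate-limiting enzyme of glucose synthesis, had 1721, 2942, 1524 and 1737 CPM at 24 h and 848, 1266 and 1408 CPM at 72 h. All 72 h libraries were below all 24 h libraries (log2 fold change -0.75, SE 0.44, unadjusted p 0.1). Gldc, the glycine-cleaving decarboxylase, also did not overlap, at 92.1 to 146 CPM and 52.2 to 87.2 CPM (-0.66, SE 0.29).

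Of 48 replication and mitosis genes tested, 34 had a log2 fold change above 0 with a median of 0.31, 15 were higher and 1 lower at an unadjusted p under 0.05, and 12 lay above all 24 h libraries in all 72 h libraries. Over all genes the shares were 2.16% higher, 2.92% lower and 2.1% above. Again 0 of 48 passed the test. The median was 0.16 without replicate 3 at 24 h and 0.52 without replicate 2 at 24 h, beside 0.03 over all genes in both. It was 0.05 on log2(RPKM + 1), beside -0.12, and 0.61 with the left-out 72 h library kept, beside 0.16. The 15 were Kif23, Cdk1, Plk1, Prc1, Ccnb1, Top2a, Cenpf, Bub1, Ccna2, Aurka, Cdc20, Mki67, Cenpe, Kif20a and Tpx2, from 0.84 to 1.97. These are genes of the G2 phase, the spindle, the kinetochore and cytokinesis, apart from Mki67, a general marker of cycling cells. The 7 Mcm genes tested, most of them subunits of the helicase that opens DNA for replication, ran from -1.38 to 0.33, with 5 below 0 and Mcm4 alone at an unadjusted p under 0.05.

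Kif23, a kinesin needed to complete cell division, was at 2.19, 0.636, 2.19 and 2.76 CPM at 24 h and at 9.81, 5.33 and 7.64 CPM at 72 h (log2 fold change 1.97, SE 0.50, adjusted p 0.742). The 2 times did not overlap. Top2a, the topoisomerase that untangles chromosomes, had 8.50, 13.0, 12.6 and 27.9 CPM at 24 h and 56.9, 34.7 and 49.6 CPM at 72 h (1.61, SE 0.47, adjusted p 0.892). Replicate 4 was the highest at 24 h and still lay below every 72 h library. Bub1, a spindle checkpoint kinase, was at 3.67 to 4.38 CPM at 24 h and at 13.7, 5.74 and 13.3 CPM at 72 h (1.44, SE 0.39). Aurka, the centrosome kinase, was at 1.27 to 2.22 CPM at 24 h and 4.23 to 5.43 at 72 h (1.37, SE 0.40). Mki67 overlapped, with 19.5, 38.8, 13.2 and 29.4 CPM at 24 h and 89.8, 29.7 and 69.4 CPM at 72 h (1.32, SE 0.47). At 48 h the means of Kif23, Bub1, Aurka, Top2a and Mki67 lay between those at 24 h and 72 h, at 4.26, 8.59, 3.15, 29.9 and 55.7 CPM.

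**Figure D3:**
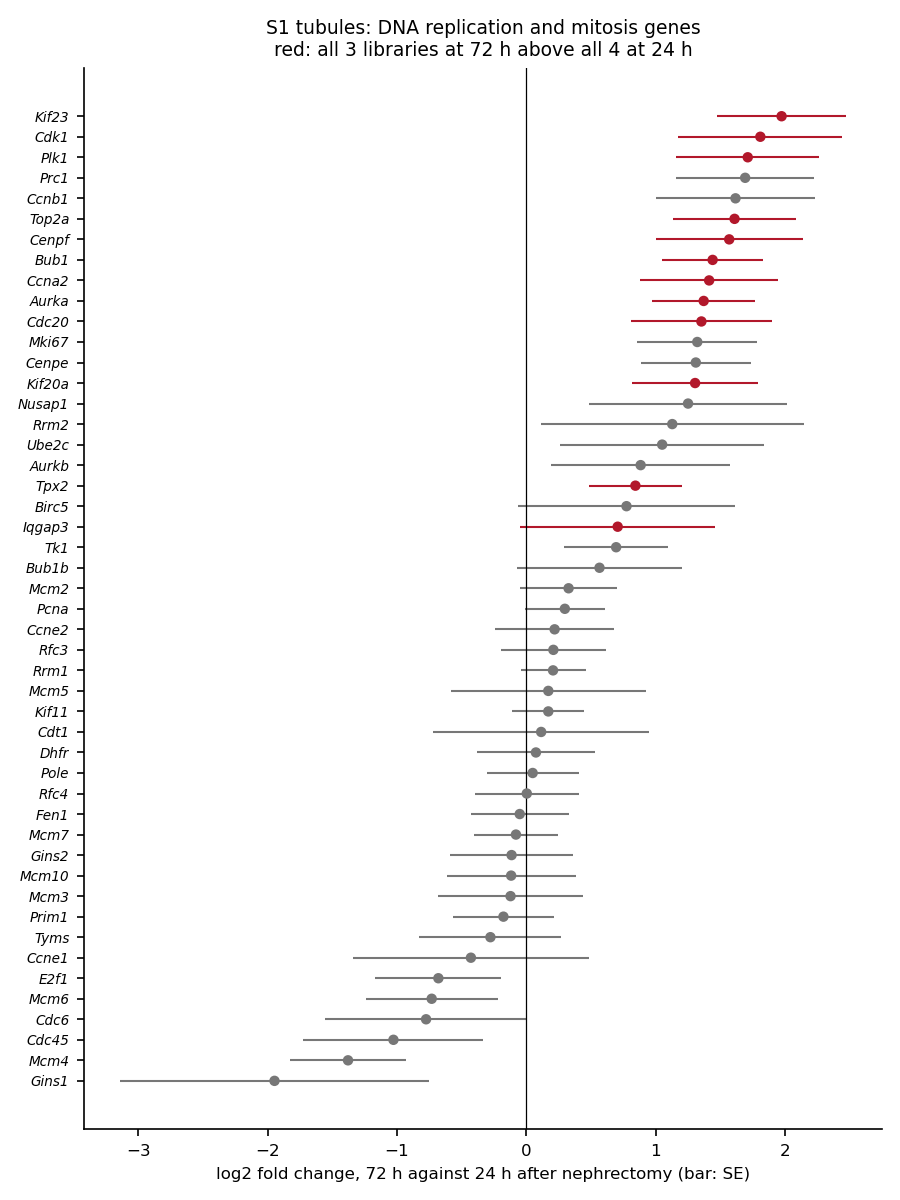
Each point is the log2 fold change of 1 of 48 DNA replication and mitosis genes in S1 tubules at 72 h against 24 h after nephrectomy, on the x axis, with a bar of 1 SE; genes are ordered by value. The 12 red genes have all 3 libraries at 72 h above all 4 at 24 h, and Kif23 is highest at 1.97.

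Mcm4 was the lower member, at 4.81, 8.09, 7.19 and 9.53 CPM at 24 h and 4.97, 0.978 and 2.47 CPM at 72 h. Replicate 1 at 72 h lay just inside the 24 h range (log2 fold change -1.38, SE 0.44, adjusted p 0.892). Ccnd1, the cyclin of the G1 phase, had 232, 240, 245 and 323 CPM at 24 h and 115, 225 and 159 CPM at 72 h. The times did not overlap (-0.65, SE 0.28, unadjusted p 0.0279). Cdkn1a, which encodes the cell cycle inhibitor p21, lay at 3.88 to 6.05 CPM at 24 h and at 4.60, 10.3 and 13.7 CPM at 72 h (0.92, SE 0.43).

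Among the lower genes, Sulf2, an enzyme that trims heparan sulfate outside the cell, had 20.0, 26.4, 28.4 and 19.4 CPM at 24 h and 10.1, 14.04 and 12.4 CPM at 72 h. The groups did not overlap and the log2 fold change was -0.95 (SE 0.22, adjusted p 0.555), with values of -1.27 to -0.85 over the other settings. Phlda1, a pleckstrin-homology-like protein, had 14.3, 7.88, 11.5 and 20.9 CPM at 24 h and 3.13, 2.99 and 5.32 CPM at 72 h (-1.86, SE 0.43, adjusted p 0.555), without overlap. Lpl, lipoprotein lipase, was below the 5 CPM needed to be named by rule and was chosen after its values were seen. It had 2.16, 7.70, 5.78 and 4.49 CPM at 24 h and 0.684, 0.355 and 1.95 CPM at 72 h (-2.46, SE 0.53, adjusted p 0.555), and 0.90 with the left-out 72 h library kept.

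Gadd45a, a stress gene linked to growth arrest, was at 19.0 to 34.1 CPM at 24 h and 14.4 to 18.2 at 72 h (-0.83, SE 0.27). Ceacam1, an adhesion molecule, was at 23.8 to 53.4 CPM and 17.6 to 21.7 CPM (-0.82, SE 0.27), and Gpc3, a glypican, at 4.20 to 12.4 CPM and 1.64 to 4.04 CPM (-1.40, SE 0.46). Gprin3 stood at -1.36 (SE 0.42) and Fhdc1, a formin, at -1.07 (SE 0.36). Among the higher genes with no list, Csmd1 was at 6.15 to 20.9 CPM at 24 h and 27.7 to 40.8 CPM at 72 h (1.40, SE 0.34, adjusted p 0.591). Evc, a protein of the cilium base, stood at 0.89 (SE 0.27) and RT1-Db1, a class II histocompatibility chain, at 1.26 (SE 0.37), both without overlap. Without replicate 3 at 72 h RT1-Db1 was at 0.78. The 12 genes named each way by smallest p were picked from these same libraries, so little overlap between times follows from the choice. Of the 12 higher ones 6 did not overlap, beside 2.1% of all genes with all 72 h libraries above. In 8 of the 12 replicate 4 was the lowest of the 3 libraries at 72 h. Of the 12 lower ones 7 did not overlap, beside 2.53% of all genes with all 72 h libraries below. Replicate 4 was the highest at 72 h in 7 of the 12. Replicate 4 also had the smallest share of reads in genes of the 72 h libraries compared (46.5%). Its part in these results was not tested.

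The other lists gave few single genes. Ribosomal protein genes had 32 of 42 above 0 (median 0.20), nuclear genes of the respiratory chain 41 of 48 (0.23), proteasome and ubiquitin genes 25 of 27 (0.26) and lysosome and autophagy genes 19 of 26 (0.26), with none past the threshold. Without replicate 1 at 72 h the medians of the ribosome and the respiratory chain were -0.05 and -0.09, beside -0.16 over all genes, and on log2(RPKM + 1) they were -0.06 and -0.04, beside -0.12. Those of the proteasome and the lysosome were 0.07 and -0.05 without that library, and 0.04 and -0.02 on log2(RPKM + 1). Of 27 injury genes 7 were above 0 (median -0.22). With the left-out 72 h library kept the median was 0.43, beside 0.16 over all genes. Havcr1, the injury marker of proximal tubules, was at 0.581 to 0.918 CPM at 24 h and at 0.185, 0.942 and 5.99 CPM at 72 h (1.65, SE 1.02), high in replicate 4 alone, and Lcn2 stood under 1.2 CPM in every library (0.16, SE 0.94). Fgb, fibrinogen beta, was at 0.777 to 2.07 CPM and 2.15 to 6.37 CPM (1.67, SE 0.48) and Spp1, osteopontin, at 13.9 to 34.0 CPM and 39.3 to 107 CPM (1.27, SE 0.66), both without overlap. Without replicate 4 at 72 h Spp1 was at 0.71. Ndrg1, a gene induced by low oxygen among other stimuli, had 1522, 1201, 1092 and 756 CPM at 24 h and 2422, 2251 and 1855 CPM at 72 h (0.93, SE 0.29), also without overlap.

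Clock genes and cholesterol genes showed no common direction. Of 19 clock genes 9 were above 0 (median -0.04). At an unadjusted p under 0.05, 1 was higher and 4 lower, beside 2.16% and 2.92% over all genes. The output gene Dbp was at 20.3, 74.2, 56.1 and 120 CPM at 24 h and at 11.9, 42.9 and 34.1 CPM at 72 h (-1.19, SE 0.49). The repressors Per2 and Per3 stood at -0.65 (SE 0.26) and -0.73 (SE 0.31), Per1 at 0.01 (SE 0.39), and the activator Npas2 at 1.07 (SE 0.45), all with overlap. The labels used here give no hour of the day for any library, and its part was not tested. Of 26 cholesterol synthesis genes 11 were above 0 (median -0.08). Igf1, the growth factor, was at 1.19 to 2.66 CPM at 24 h and at 0.130, 4.12 and 3.07 CPM at 72 h (0.28, SE 0.73).

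**Figure D4:**
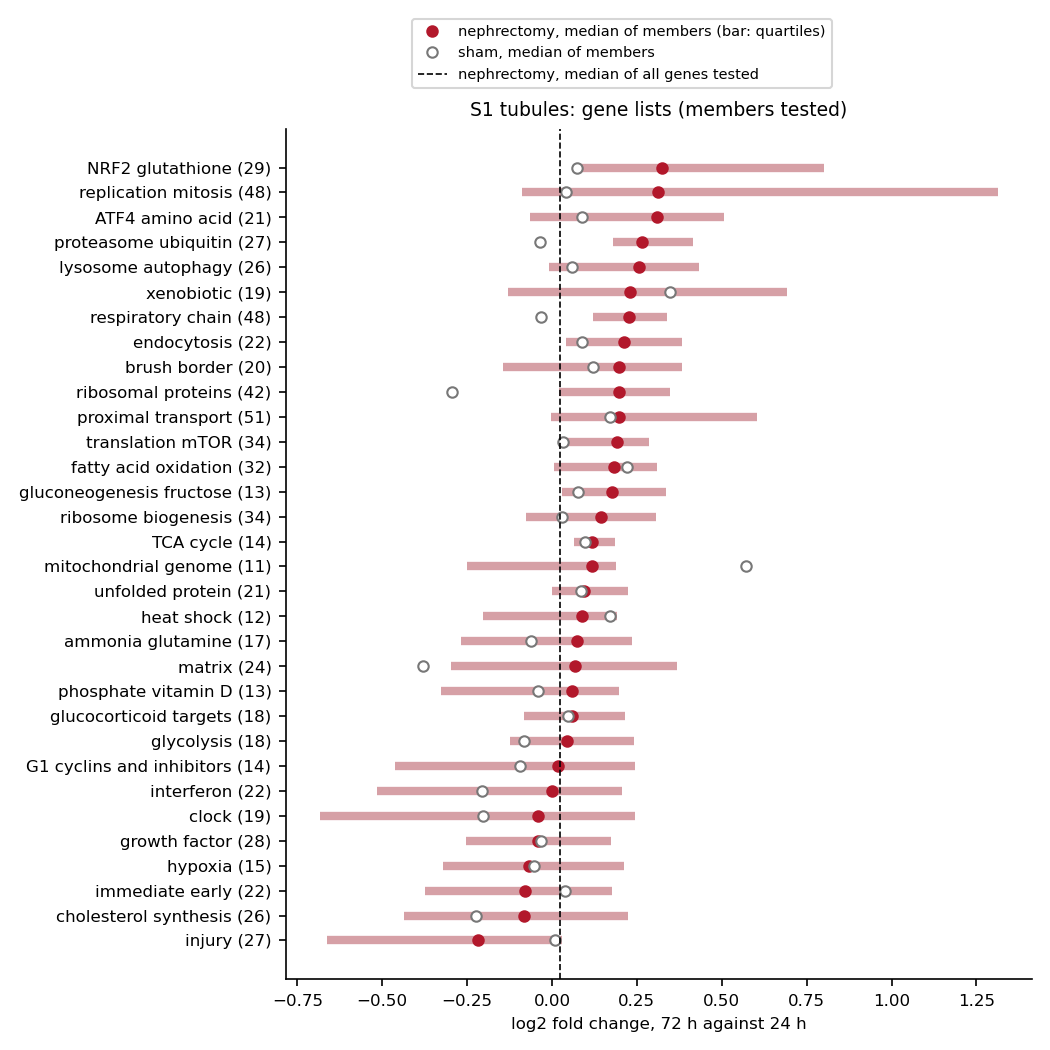
Filled red points are the median log2 fold change at 72 h against 24 h after nephrectomy of each gene list other than the cell type markers in S1 tubules (x axis), with bars from the lower to the upper quartile of members, and open grey points are the same medians after sham surgery; the number of members tested is in brackets. These medians after nephrectomy lie between -0.22 for injury genes and 0.32 for NRF2 and glutathione genes, and the dashed line marks 0.02 for all genes tested.

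Collecting duct markers had a log2 fold change below 0 in 10 of 10 tested, with a median of -1.84. Of them 4 had an unadjusted p under 0.05, beside 2.92% of all genes lower at that p. Their summed level was 22.6 to 140.7 RPKM at 24 h and 17.0 to 29.7 RPKM at 72 h. Atp6v1b1, a proton pump subunit of intercalated cells, was at 4.78, 24.1, 76.9 and 12.9 CPM at 24 h and at 3.09, 2.68 and 8.69 CPM at 72 h (-2.67, SE 0.81, adjusted p 0.892). Slc4a1, the anion exchanger of the same cells and of red cells, was at 7.97, 31.8, 122 and 31.1 CPM at 24 h and at 2.52, 10.99 and 26.9 CPM at 72 h (-1.86, SE 0.84). Replicate 3 at 24 h was the highest library for both genes, and without it they were at -1.57 and -0.82 and the median of the list at -0.79. Mal, a sorting protein of distal segments, stood at -2.57 (SE 0.81). Of the tested markers, 1 of 11 was above 0 for loop and distal tubule, 2 of 12 for podocytes, 2 of 11 for endothelium, 3 of 14 for leukocytes, 4 of 8 for the later proximal tubule, 6 of 12 for mesangium and muscle, and 6 of 10 for fibroblasts. With the left-out 72 h library kept the podocyte and leukocyte medians went from -0.54 and -0.39 to 0.13 and 0.18. The median of all genes was then 0.16. Nphs1, the podocyte gene nephrin, was at 3.09 to 7.97 CPM at 24 h and 2.27 to 4.62 CPM at 72 h (-0.70, SE 0.41). The part of these markers in the other results was not tested.

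**Figure D5:**
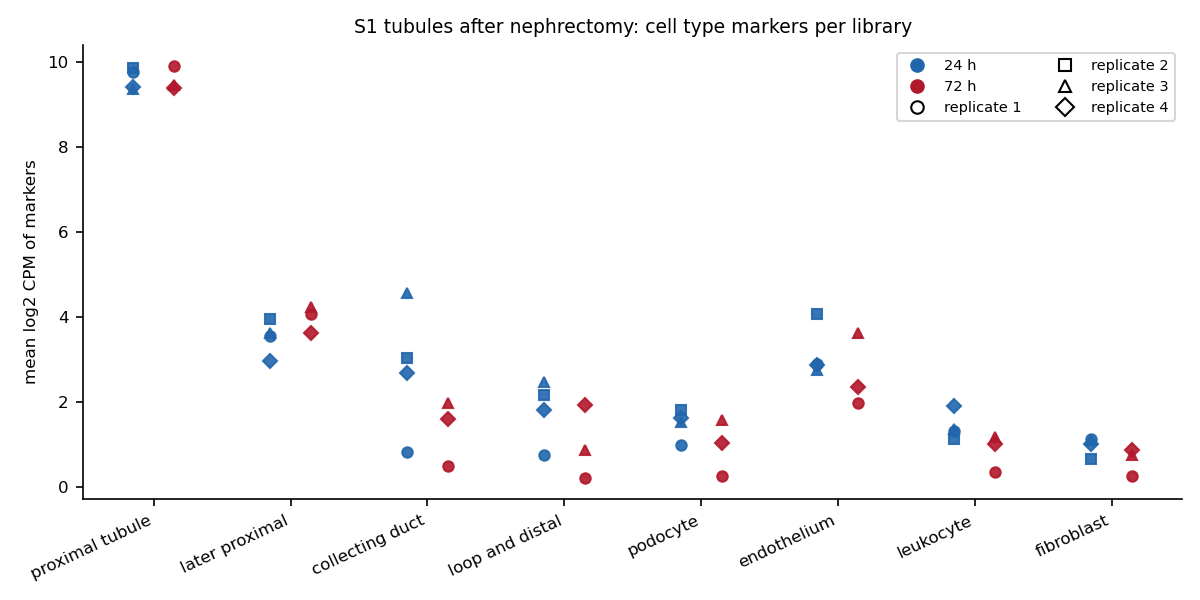
Points are the mean log2 CPM of the markers of 8 cell types (x axis) in each S1 library after nephrectomy, blue at 24 h and red at 72 h, with a symbol for each replicate. Proximal tubule markers lie far above the rest in all 7 libraries, and collecting duct markers are highest in replicate 3 at 24 h (4.58).

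After sham surgery, which asks what 48 h of recovery does with both kidneys in place, 0 of 17759 genes passed the test between 72 h and 24 h (0%), and 336 had an unadjusted p under 0.05 (1.89%). DESeq2 called 1 gene there, Apcs. The difference of the change between the surgeries was past the threshold for 0 genes (0%) in edgeR, with 610 at an unadjusted p under 0.05 (3.43%), and DESeq2 and limma also called 0. Its 5 named genes with the smallest p were Apcs, Col18a1, Pex11a, Sult1a1 and Tmem205. Apcs, serum amyloid P, had a log2 fold change of -0.05 (SE 0.31) after nephrectomy and 1.73 (SE 0.32) after sham surgery, and Col18a1, a basement membrane collagen, -0.29 (SE 0.26) and 1.09 (SE 0.26). In both the change was larger after sham surgery. Pex11a, a peroxisome division protein, was at 31.2 to 39.1 CPM at 24 h and 21.0 to 22.4 CPM at 72 h after nephrectomy (-0.69, SE 0.27), against 0.61 (SE 0.27) after sham surgery. Tmem205 stood at 1.02 (SE 0.33) against -0.51 (SE 0.33), and Sult1a1 at -1.78 (SE 0.41) against 0.12 (SE 0.39), where the difference was -1.90 (SE 0.56, adjusted p 0.9995). The mitosis genes Kif23 and Top2a stood at 0.30 (SE 0.50) and 0.02 (SE 0.47) after sham surgery. Their differences between surgeries, 1.67 (SE 0.70) and 1.59 (SE 0.66), did not pass. Of the 12 higher genes named by smallest p after nephrectomy, 11 were also above 0 after sham surgery. Of the 12 lower ones 7 were also below 0.

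In whole kidney after nephrectomy the same 2 times gave 19 genes past the threshold of 15678 tested (0.121%), 1 higher and 18 lower, with a biological coefficient of variation of 0.248. That count was 249 without replicates 3 and 4 at 24 h of both surgeries, and 0 to 14 when a single library was left out. All 19 were tested in S1, where 12 had a log2 fold change of the same sign. Beside 5.07% of all genes tested in S1, 1 of the 19 had an unadjusted p under 0.05 there. It was RGD1305733, the single higher gene, chosen after its values were seen, with a log2 fold change of 2.78 (SE 0.50) in whole kidney and 1.47 (SE 0.38, unadjusted p 0.000583, adjusted p 0.862) in S1. The cholesterol synthesis genes Hmgcs1, Idi1 and Hsd17b7 fell in whole kidney by 1.13, 0.99 and 1.03 on the log2 scale (SE 0.22, 0.18 and 0.20, edgeR adjusted p 0.0417, 0.0382 and 0.0382), beside -0.47, -0.53 and -0.69 in S1, which did not pass. Cyp24a1 stood at -0.56 (SE 0.56) in whole kidney, Miox at 0.43 (SE 0.19) and Slc22a12 at 0.52 (SE 0.17). Kif23 was at 0.79 (SE 0.41) and Top2a at 1.01 (SE 0.50), and none of these genes passed the threshold there. The 10 proximal tubule markers had a median of 1.23 in whole kidney, beside -0.01 over all genes. In its replicate 3 at 24 h after nephrectomy 93.9% of counted alignments were not unique, beside 45.2 to 59.9% in the others of that group. The part of either in these values was not tested. The 2 tables come from different library kits and were fitted apart, so no difference between S1 and whole kidney was tested.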

How the data were processed

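The authors deposited whole-number read counts per gene for S1 tubules and whole kidney, with RPKM (S1) and FPKM (whole kidney) made from them, per the file headers. The submitters' processing notes name HTSeq, SAMtools, Trimmomatic 0.32 and STAR 2.4.0.1. Not given in the sources used here are genome build, annotation and strand use. Overlapping genes and close copies are therefore uncertain. S1 cDNA was amplified (NuGEN Ovation V2) and read from 1 end, and whole kidney libraries were TruSeq Stranded, per the labels' protocols.

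The counts of 22 S1 libraries in 6 groups of surgery and time were fitted with edgeR 4.0.16 in R 4.3.3 (TMM, filterByExpr with minimum count 10, quasi-likelihood F test, Benjamini-Hochberg over all genes, threshold 0.05). Nephrectomy 72 h replicate 2 and sham 24 h replicate 2, whose markers go against its label, were left out. Whole kidney was fitted on 24 libraries. HTSeq summary entries, which name no gene, stayed out of totals. Standard errors (SE) were taken as the absolute log2 fold change divided by the root of F. No 2 columns compared were copies. Other settings used DESeq2 1.42.0 and limma 3.58.1. The code was tested on simulated data.

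Members, lists and rules were chosen with earlier results of these data known. Named were the 12 genes each way with the smallest p (mean of at least 5 CPM), up to 4 members per list, 12 fixed genes and 5 for the difference. Lpl, Vdr, Slc15a1 and RGD1305733 were added after their values were seen.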

Additional observations from a re-analysis of the deposited data

Results flagged for a closer look

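In 110 sets of 4 libraries at 24 h after nephrectomy (68 genes and 42 lists), 1 library stood far from the other 3 in 5 sets, about what chance gives at 1 in 20. Cyp27b1 was at 14.1 CPM in replicate 2 and at 1.31 to 3.09 in the others. Pck1 was at 2942 CPM in replicate 2 and at 1524 to 1737 in the others. Ccnd1 was at 323 CPM in replicate 4 and at 232 to 245 in the others. The mean log2 CPM of cholesterol synthesis genes was 3.66 in replicate 3 and 3.17 to 3.25 in the others. That of endothelial markers was 4.07 in replicate 2 and 2.76 to 2.91 in the others.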

How the results depend on the processing

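Of 1359 values of the 68 named genes under other settings, 1320 kept the direction of the log2 fold change and 10 passed the threshold. In S1 after nephrectomy the count of genes past the threshold was 1 without the filter on low counts, 6 with DESeq2, 0 to 1 when 1 library was left out, and 0 under the other settings without a block. After sham surgery it was 1 with DESeq2 and 1 with limma on log2(RPKM + 1). In whole kidney it was 11 without the filter, 46 with minimum count 50, 376 with DESeq2, 5288 with voom, 2 with limma on log2(FPKM + 1), 957 with only the libraries compared, 249 without the 24 h libraries numbered 3 and 4, and 0 to 14 when 1 library was left out. Taking out all 37 mitochondrial genes, an alternative chosen after seeing the data, called 0 genes in S1. The cause of these differences was not tested.

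No label says whether replicate numbers pair the samples. With group means taken out, same-numbered libraries at 24 h and 72 h correlated at 0.30, -0.04 and 0.15. Differently numbered ones correlated at -0.33 to 0.31. So few correlations can neither show nor exclude a pairing, and the main test used none. With the replicate block 4 genes passed in S1 (Osbpl8, Slc22a12 and Hrg higher, Phlda1 lower), 1 after sham surgery and 29 in whole kidney. Under the block Per1 was -0.015 and Apcs 0.12.

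Log2 fold changes of 10 genes turned sign under a setting. Per1 was -0.062 with DESeq2's size factors, -0.053 with minimum count 50, -0.061 with DESeq2, -0.20 with RPKM and -0.046 with only the libraries compared. With the left-out 72 h library kept Per1 was -0.35, Slc34a1 -0.10 and Lpl 0.90, and with all 24 libraries they were -0.36, -0.12 and 0.73. With RPKM Slc34a1 was -0.074, Lcn2 -0.092 and Igf1 -0.17. With voom Slc5a2 was 0.0073, Cyp27b1 0.049, Havcr1 -0.26, Lcn2 -0.23, Igf1 -1.53 and Apcs 0.15. Without the filter Slc5a2 was 0.0026. Leaving out 1 library gave -0.45 to 0.19 for Slc5a2, -0.11 to 0.14 for Per1, -0.73 to 0.73 for Lcn2, -1.60 to 0.50 for Cyp27b1, -0.30 to 0.26 for Apcs, -0.12 to 0.62 for Lrp2, -0.42 to 0.73 for Igf1 and -0.38 to 2.14 for Havcr1. Lcn2 had no value at minimum count 50.

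The spread between libraries limits what could be called, with a median SE of 0.49 for a log2 fold change.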

Other observations

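Sgk1, a kinase gene induced by corticosteroids, had 830, 662, 844 and 1172 CPM in the S1 libraries at 24 h after nephrectomy and 872, 1373 and 1649 CPM at 72 h (log2 fold change 0.57, SE 0.36, unadjusted p 0.127). The 48 h libraries after nephrectomy lay at 117 to 199 CPM, below all of these. The sham means were 182 CPM at 24 h, 484 CPM at 48 h and 142 CPM at 72 h.

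In the library left out at 72 h, replicate 2, the deposited RPKM was 2.50 for Cyp24a1, under the 17.6 to 47.5 of the 24 h libraries and within the 0.891 to 6.31 of the other 72 h libraries. It was 10.7 for Top2a, beside 4.79 to 11.4 in those. For Miox it was 17.5 beside 125.6 to 321, and for Slc22a12 5.48 beside 53.3 to 119.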
